A study of Mus musculus with 6 samples.

Results

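The heat shock proteins and their J-domain co-chaperones were compared between 2 populations of green fluorescent cells from the mouse embryo. The 74 genes were taken by symbol, as every listed gene named Hspa, Hspb, Hspd, Hspe, Hsph, Hsp90, Dnaja, Dnajb or Dnajc followed by its number, out of 51912 listed genes. Membership follows from the symbol alone. They comprise 6 cytosolic Hsp70 genes, 3 Hsp70 genes of the endoplasmic reticulum (ER) and mitochondrion, 2 divergent Hsp70 genes, 3 Hsp110 genes, 3 Hsp90 genes, 2 mitochondrial chaperonin genes, 7 small heat shock protein genes, 45 J-domain genes (4 DnaJA, 13 DnaJB and 28 DnaJC), and 3 genes that the symbols bring in although their products belong to none of these families (Hspb11, Hspbap1 and Hspbp1).

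Cells came from the aorta-gonad-mesonephros (AGM), the region around the dorsal aorta, of MacGreen embryos at day E10.5. In the MacGreen strain EGFP stands under the Csf1r promoter, which is active in macrophages and also in some other myeloid cells and precursors, so GFP alone does not define a macrophage. All samples shared the transgene, the 45 min of collagenase at 37 °C and the sort. GFP+ cells without surface CD206 (the mannose receptor, product of Mrc1) are called CD206neg here, and GFP+ cells with it CD206pos. The 6 libraries, 3 of each population, came from 3 independent litters, with 3 to 5 AGM pooled per library. The titles number the pools 1 to 3, and a shared number was taken to mean 1 litter, which the labels do not state outright. Every value given by litter rests on that reading. An n of 3 counts these pools, and each p-value weighs a difference against the spread between these pools. No undigested sample was analysed here, so the data compare populations that went through the same digestion and do not measure a change from the undigested tissue.

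The libraries held 16730846 to 18214283 reads in genes, and 3 reads correspond to 0.163 to 0.183 CPM. CPM (a gene's share of its library's reads on a fixed scale) were scaled by TMM to make libraries comparable. Mrc1 was at 51.6, 118 and 112 CPM in CD206neg and 1458, 1792 and 1506 CPM in CD206pos, values being given for litters 1, 2 and 3 in that order throughout, with an adjusted p of 0.00084 (edgeR's quasi-likelihood test, Benjamini-Hochberg adjustment over all 12668 tested genes). Of 12 macrophage markers 7 were called higher in CD206pos and 0 lower, their summed level being 5738 to 6769 CPM in CD206neg and 11317 to 14758 CPM in CD206pos. Transcripts of other blood cells were present in the CD206neg libraries. The 10 progenitor markers (6 called lower in CD206pos) summed to 785 to 1075 CPM there and 96.6 to 157 CPM in CD206pos, with Kit at 0 reads in CD206pos, and the 11 granulocyte markers (7 tested, 7 called lower) to 1867 to 2874 and 17.4 to 69.7 CPM. Of tested markers, 2 of 4 megakaryocyte genes were called lower, and 0 of 5 erythroid, 0 of 7 mesenchymal and 0 of 3 epithelial genes were called, nor were any of 20 proliferation genes (unadjusted p under 0.05 for 2, 0, 1 and 4 of them). In CD206pos, 7 of the 11 granulocyte and 4 of the 8 megakaryocyte genes had 0 reads. Like Kit, those of them that were tested could only come out lower. These are bulk libraries, in which fewer cells of a type and less RNA per cell cannot be told apart.

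Hsp70 chaperones bind exposed hydrophobic stretches of unfolded proteins and release them in a cycle driven by ATP. J-domain proteins bring the clients and trigger the hydrolysis step, Hsp110 proteins exchange the nucleotide, and Hsp90 takes over many clients for late folding. When proteins unfold, heat shock factor 1 (Hsf1) is released from chaperones and switches on a subset of these genes, among them Hspa1a, Hspa1b, Dnajb1 and Hsph1, while unfolding in the ER raises Hspa5, Hsp90b1 and Dnajc3 through Atf6 and Xbp1. Enzymatic dissociation of tissue at body temperature is a known trigger of heat shock and immediate early transcripts in sorted cells, including macrophages.

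Recognition elements of both routes were searched for upstream of the genes' starts. RefSeq promoter sequences (GRCm38.p6) were matched for 60 of the 74 genes, and the 250 bases before each start were searched on both strands. The windows below are shown because they hold the elements through which Hsf1 and the ER stress factors act. For the stress-inducible Hsp70 pair on chromosome 17, the last 120 bases before the start are printed, from chr17:34972157-34972276 and chr17:34959239-34959358 (minus strand). Capitals mark a heat shock element of 2 inverted units (GAANNTTC). For Hspe1, the small mitochondrial chaperonin, the window is chr1:55088053-55088082 (plus strand), 66 to 95 bases before its start, and capitals mark 2 overlapping elements of 3 units (GAANNTTCNNGAA), 1 on each strand.
Hspa1a: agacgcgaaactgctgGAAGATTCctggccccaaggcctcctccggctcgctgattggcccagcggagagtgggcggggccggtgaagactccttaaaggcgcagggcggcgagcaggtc
Hspa1b: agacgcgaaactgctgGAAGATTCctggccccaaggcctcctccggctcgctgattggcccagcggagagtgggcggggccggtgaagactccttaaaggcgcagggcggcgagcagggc
Hspe1: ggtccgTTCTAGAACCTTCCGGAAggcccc

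The printed Hspa1a and Hspa1b windows differ at 1 of 120 bases, and their full upstream stretches at 3 of 250 bases. The element of 3 units was in 3 of the 60 matched genes (Dnajb6, Hspd1 and Hspe1), against 0.514% of all 27025 genes with such a window. GAANNTTC, which every 3-unit element also contains, was in 11 of the 60 genes (18.3%) and in 7.73% of all genes, and 6 of the 11 matched heat-inducible genes held it (Hspa1a, Hspa1b, Hspd1, Hspe1, Dnaja1 and Hspb1). The tail-to-tail form TTCNNGAA was in 6 of the 60 genes and in 8.11% of all genes. Hspa1b and Hspa1a lie next to each other at chr17:34956436-34959238 and chr17:34969190-34972156 in the deposited annotation (GRCm38).

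The second set shows the ER stress response element, CCAAT and CCACG with 9 bases between them, in the upstream bases of 3 ER chaperone genes. It was in these 3 of the 60 genes and in 0.13% of all genes. Among 22 other genes of the ER unfolded protein response, 20 had a window and 6 held the element. Capitals mark the element in chr2:34772020-34772048 (plus strand), chr10:86705528-86705661 (minus strand, with 2 elements) and chr14:118937822-118937850 (plus strand). A match describes letters only and is no evidence that a factor was bound in these cells.
Hspa5: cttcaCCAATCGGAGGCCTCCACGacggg
Hsp90b1: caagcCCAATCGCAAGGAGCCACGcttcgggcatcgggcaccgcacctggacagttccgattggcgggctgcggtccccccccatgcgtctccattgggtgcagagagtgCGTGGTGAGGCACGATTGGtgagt
Dnajc3: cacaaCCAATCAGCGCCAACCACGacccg

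Few differences among the 74 genes passed the test. Of 66 genes with enough reads to be tested, 0 were called higher in CD206pos by edgeR and 1, Hspb3, was called lower, where called means an adjusted p under 0.05. Over all 12668 tested genes, 4.87% were called, 2.97% higher and 1.9% lower. DESeq2 and limma-voom also called 0 of the 66 genes higher. At an unadjusted p under 0.05, 6 genes were higher and 5 lower, which is 16.7% of the 66 beside 17.6% of all tested genes. The 3 values of a population lay entirely above or below those of the other for 16 of the 66 genes (24.2%), beside 24.6% of all tested genes. Both shares lie near the background of the whole comparison. The median log2 fold change was -0.02, and -0.00 over all tested genes. For 38 of the 66 genes the 95% interval of the log2 fold change lay within -1 to 1, so a 2-fold difference in either direction is outside their interval. For the other 28 it is not.

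The 8 untested genes had few reads. Hspb7, Dnajc5b, Dnajc5g and Dnajc6 had 0 reads in all 6 libraries. Of the others, only Dnajc22 reached 20 reads in a library, with 22 in CD206neg of litter 1 and 0 elsewhere. Hspb2, Hspb9 and Dnajb8 had at most 13.

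**Figure D1:**
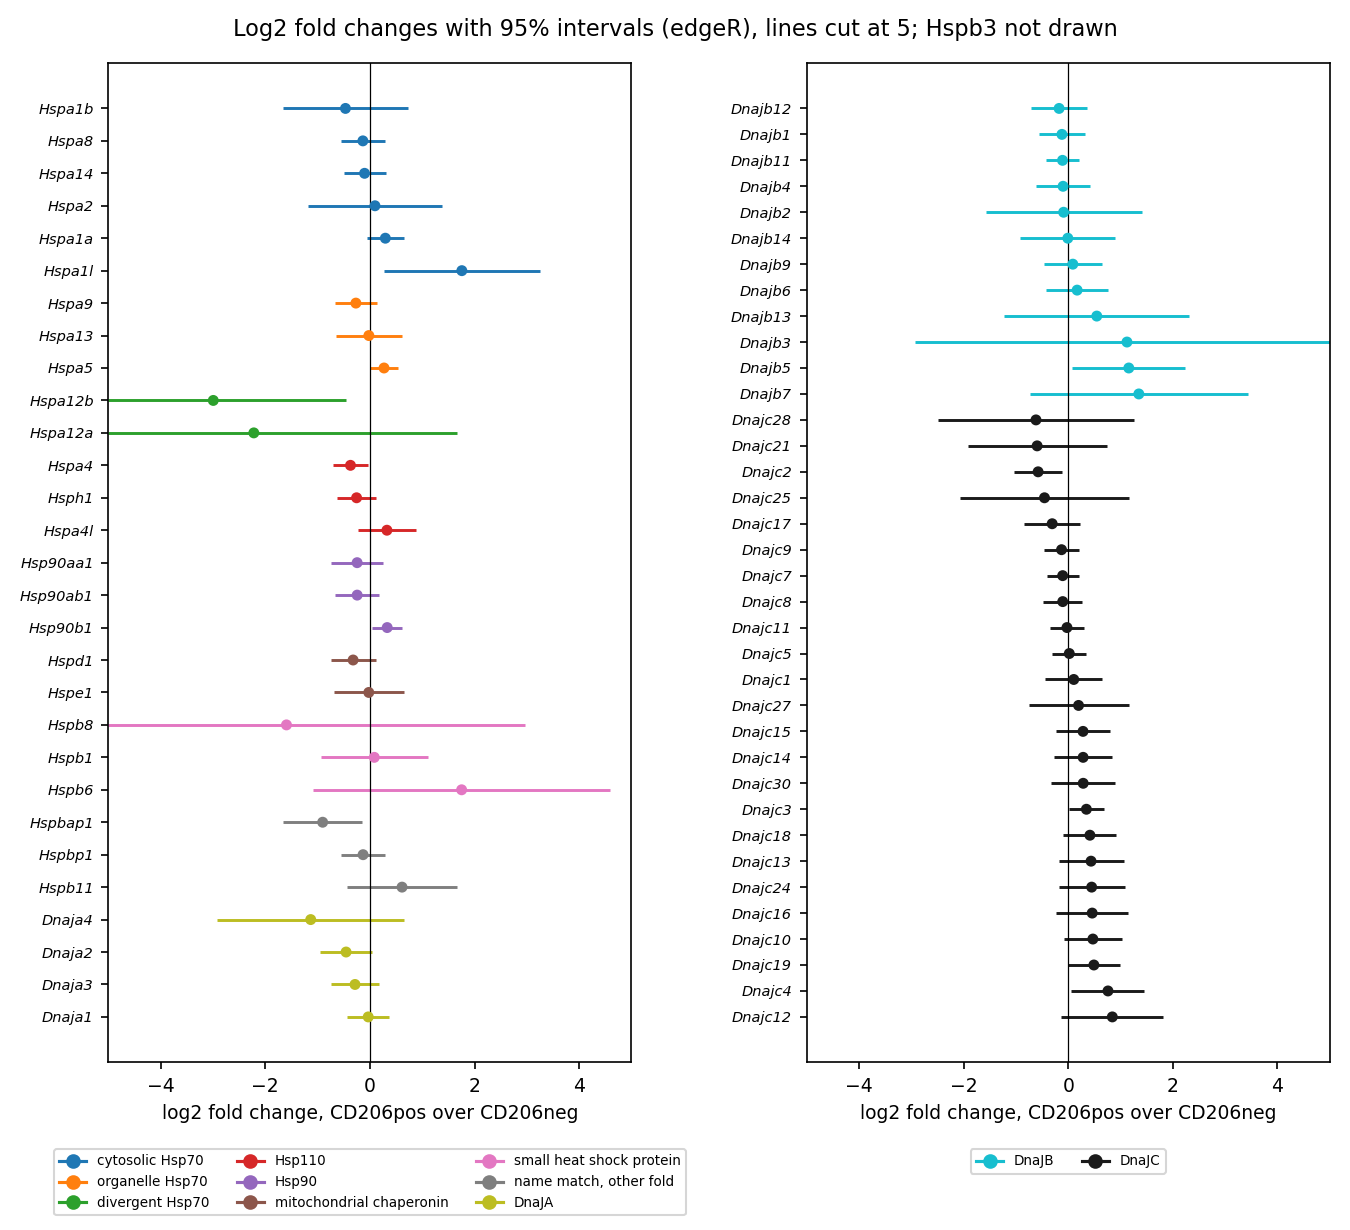
Log2 fold changes (CD206pos over CD206neg, x axis) with 95% intervals for 65 of the 66 tested genes, coloured by family; lines end at the edge of the axis, and Hspb3 (-8.15) is not drawn. Most points lie close to 0 and most intervals cross it; the widest belong to genes of few reads such as Hspa12a, Hspb8 and Dnajb3.

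No heat-inducible gene was called. This list of 14 genes holds members known to be raised by heat, among them Hsp90ab1 and Hspa8, which are also abundant without stress. Of the 14, 0 were called, 0 reached an unadjusted p under 0.05, and 0 had populations without overlap. Over all tested genes these shares were 4.87%, 17.6% and 24.6%. With 14 genes, 0 called lies near the share over all tested genes. DESeq2 and limma-voom called 0 as well. The median log2 fold change was -0.13, 3 of the 14 being positive, and 11 of the 14 intervals lay within -1 to 1. With the litter as a block, which takes differences between litters out of the error, 0 of the 14 were called, and 1 was higher (Hspa1a) and 3 were lower (Hsp90ab1, Hspd1 and Hsph1) at an unadjusted p under 0.05. That is 28.6% of the 14, beside 20.8% of all tested genes in the same fit. The sign was the same in all 3 litters for 6 of the 14, higher in CD206pos for Hspa1a and Hspa4l and lower for Hsp90ab1, Hspd1, Hsph1 and Dnajb4. Together the 14 took 0.883% to 1.37% of the reads of a library, out of 1.96% to 2.54% for all 74 genes.

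Hspa1a, the main stress-inducible Hsp70, was at 646, 768 and 729 CPM in CD206neg and 709.9, 922 and 999 CPM in CD206pos. CD206pos was higher in each of the 3 litters, but the lowest CD206pos value lay below the CD206neg values of litters 2 and 3. The log2 fold change was 0.30 (95% interval -0.06 to 0.65, edgeR adjusted p = 0.39, and 0.18 with the block). Dnajb1, the J-domain partner that Hsf1 induces together with Hspa1a, was at 1269, 1540.2 and 1301 CPM in CD206neg and 981, 1615 and 1187 CPM in CD206pos. It was lower in CD206pos in litters 1 and 3 and higher in litter 2, and its interval was -0.55 to 0.31 around -0.12. Hsph1, the inducible Hsp110 exchange factor, was at 1052, 882 and 732 CPM in CD206neg and 828, 744 and 663 CPM in CD206pos. Each CD206pos value was below the CD206neg value of its litter, yet the populations overlapped (log2 fold change -0.25, interval -0.63 to 0.12, edgeR adjusted p = 0.50).

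Of the cytosolic Hsp90 genes, Hsp90ab1, the constitutive form, was at 6656, 5519 and 4679 CPM in CD206neg and 5648, 4764 and 3826 CPM in CD206pos. Per kilobase of exon it stood at 1728 CPM, the highest of the 74 genes and rank 6 among all tested genes. Its log2 fold change was -0.24 (-0.66 to 0.17), lower in CD206pos in 3 of 3 litters with overlapping populations. Hsp90aa1, the inducible form, was at 631, 619.8 and 477 CPM in CD206neg and 638, 468 and 353 CPM in CD206pos. It differed from Hsp90ab1 in level but had the same log2 fold change of -0.24 (-0.74 to 0.26, edgeR adjusted p = 0.66).

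Hspa8, the constitutive Hsp70 that also uncoats clathrin vesicles, was at 2080.5, 1579.9 and 1312 CPM in CD206neg and 1621, 1611 and 1299 CPM in CD206pos. Litter 1 held the highest value in each population, and the log2 fold change was -0.13 (-0.56 to 0.29). The mitochondrial chaperonin pair folds imported proteins in a closed chamber. Its ring subunit Hspd1 was at 811, 709 and 582 CPM in CD206neg and 693, 530.1 and 459 CPM in CD206pos and its lid subunit Hspe1 at 191, 203 and 155 CPM in CD206neg and 276, 147 and 119 CPM in CD206pos. For Hspe1 the highest and the lowest of the 6 values were both CD206pos libraries (litters 1 and 3). The 2 genes overlap head to head on chromosome 1 in the deposited annotation (chr1:55077835-55088243 and chr1:55088132-55091307), and reads in the overlap were left uncounted by the program's defaults.

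The other heat-inducible genes reached no unadjusted p under 0.05 with or without the block. Dnaja1, a cytosolic partner of Hspa8, was at 193, 240.2 and 176 CPM in CD206neg and 214, 216 and 165 CPM in CD206pos. Hspa4l and Dnajb4 lay between 20.2 and 42.8 CPM in all libraries, with log2 fold changes of 0.33 and -0.10. Hspb1 (Hsp25), a small heat shock protein that keeps unfolding clients soluble, was at 5.66, 16 and 9.87 CPM in CD206neg and 8.5, 15 and 9.89 CPM in CD206pos. Litter 2 was highest in both populations for Hspb1. Hspb8, which works with Bag3 in selective autophagy, had 0 reads in 3 of the 6 libraries and at most 2.71 CPM.

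**Figure D2:**
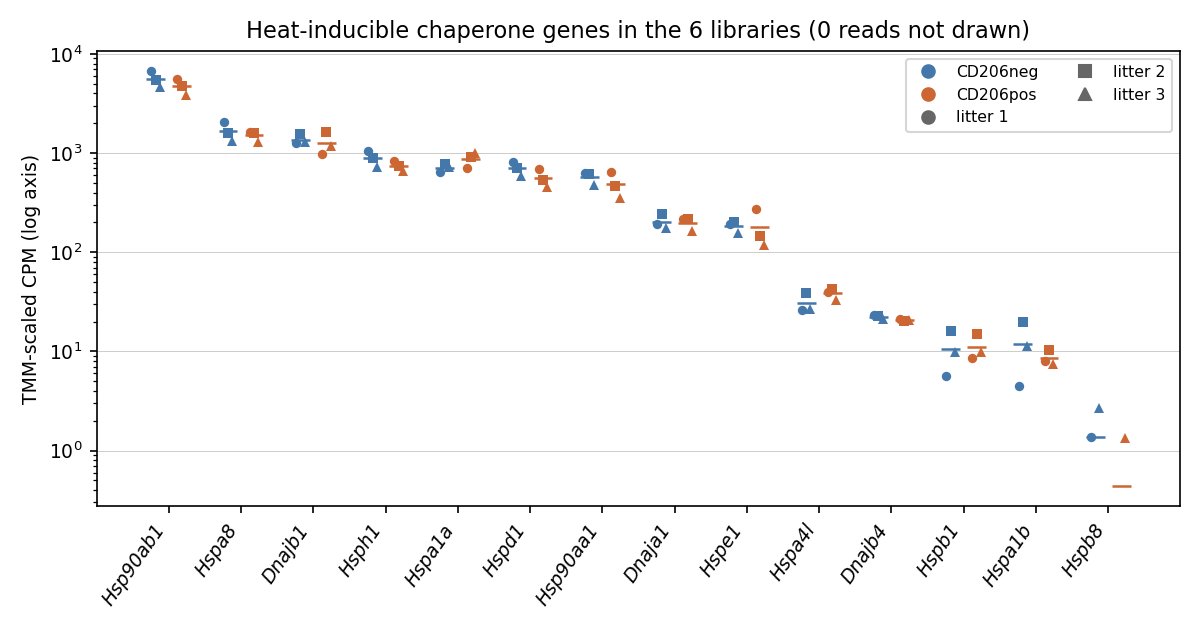
TMM-scaled CPM (log axis) of the 14 heat-inducible genes in the 6 libraries; colours give the population, symbols the litter and bars the mean of 3 litters, and libraries with 0 reads (Hspb8) are not drawn. The populations overlap for each of the 14 genes, from Hsp90ab1 at 3826 to 6656 CPM down to Hspb8.

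Hspa1a and Hspa1b encode nearly the same protein, and the split of reads between them is uncertain. Hspa1b was at 4.47, 19.9 and 11.3 CPM in CD206neg and 8.07, 10.3 and 7.41 CPM in CD206pos, 0.686% to 2.53% of the reads of the pair. Of all stretches of 50 bases in Hspa1b transcripts, 62.3% also occur in Hspa1a, and 58.8% of those of Hspa1a occur in Hspa1b. Reads that map to several places were not counted by default, so both levels can be too low and their ratio is not interpreted. Of the 74 genes, 29 shared no stretch of 50 bases with another gene and 17 shared more than 10%. Among the latter were Hspa1l (71.4%), Hspb1 (50.1%, mostly with Hsp25-ps1), Hsp90aa1 (47.5%), Hspd1 (42.1%, mostly with Hspd1-ps3), Hspa8 (39.4%), Hspe1 (22.8%) and Dnaja1 (20.6%). Counts of these genes are likewise uncertain.

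None of the remaining cytosolic Hsp70 or Hsp110 genes was called by edgeR, and 2 of them, Hspa1l and Hspa4, reached an unadjusted p under 0.05. Hspa1l, a form best known from testis that adjoins Hspa1a on the other strand, was at 1.58, 0.985 and 1.47 CPM in CD206neg and 5.5, 3.49 and 4.69 CPM in CD206pos. The populations did not overlap, and the ratio of means was 3.4, but the test did not pass (log2 fold change 1.76, interval 0.26 to 3.25, edgeR adjusted p = 0.20). Hspa14, which works at the ribosome, and Hspa2, known from spermatogenesis, had log2 fold changes of -0.10 and 0.10. The Hsp110 gene Hspa4 was at 732, 700.1 and 579 CPM in CD206neg and 577, 505 and 473 CPM in CD206pos. It was lower in CD206pos in each litter without overlap, at a log2 fold change of -0.37 and an edgeR adjusted p of 0.22.

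The divergent Hsp70 genes had the largest negative values outside the small heat shock proteins. Hspa12b, known from endothelial cells, was at 6.81, 1.74 and 4.57 CPM in CD206neg and 0.122, 0.172 and 1.33 CPM in CD206pos. The mean was 8.07-fold lower in CD206pos and the populations did not overlap, but the interval reached from -5.53 to -0.46 on the log2 scale and the edgeR adjusted p was 0.20. Of 9 endothelial markers, 1 (Sox17) was called lower in CD206pos and 8 had negative log2 fold changes. They summed to 161 to 269.9 CPM in CD206neg and 63.2 to 95.1 CPM in CD206pos, where Sox17 was at 0 reads and so could only come out lower. Their part in the Hspa12b values was not tested. Hspa12a, the lowest tested member per kilobase (0.253 CPM, rank 12057), was at 2.23, 0.927 and 4 CPM in CD206neg and 1.53, 0 and 0 CPM in CD206pos.

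The small heat shock protein Hspb3 was the single called gene. Hspb3 (chr13:113662896-113663676) is best known from muscle, where it pairs with Hspb2. It had 23, 44 and 41 reads in CD206neg (1.25, 2.55 and 2.31 CPM) and 0 reads in each CD206pos library. Hspb3 thus passed the read filter through its CD206neg reads alone. A gene that passes this way with 0 CD206pos reads can only come out lower, so its direction carries no support. Against 3 reads over the CD206pos group, the level was at least 34.8-fold lower there (edgeR adjusted p = 0.042). With the litter as a block the adjusted p was 0.12, with limma-voom 0.055, and without any single library or litter it lay between 0.080 and 0.30, so the call rests on all 6 libraries together. DESeq2 gave 0.00092. Muscle markers were near the floor in both populations except for 1 CD206pos library. Of 7 such genes 3 were tested and 0 called, Myod1 had 0 reads in every library, and the list summed to 1.62 to 4.62 CPM in CD206neg and 0 to 17.8 CPM in CD206pos. The progenitor list (6 of 10 called) and the granulocyte list (7 of 7), whose sums are given above, were lower in CD206pos as Hspb3 was, and their part in it was not tested. Like Hspb3, 1 of the 10 progenitor genes (Kit) and 7 of the 11 granulocyte genes had 0 CD206pos reads. The direction of those tested was fixed likewise and carries no support.

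Of the other small heat shock proteins, Hspb6, a muscle form, was at 2.94, 2.66 and 0 CPM in CD206neg and 5.93, 11.1 and 1.97 CPM in CD206pos (log2 fold change 1.75, interval -1.09 to 4.60). Among the 3 genes matched by name alone, Hspbap1 was at 29.2, 25 and 28.6 CPM in CD206neg and 19.8, 8.54 and 16 CPM in CD206pos. Its populations did not overlap, but the edgeR adjusted p was 0.20 at a log2 fold change of -0.90. Hspb11, a protein of intraflagellar transport also named Ift25, and Hspbp1, an Hsp70 exchange factor, had log2 fold changes of 0.61 and -0.13.

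Of 13 tested ER genes, 0 were called by edgeR, DESeq2 or limma-voom. At an unadjusted p under 0.05, 3 were higher and 0 lower (23.1%, beside 17.6% of all tested genes), and 4 had populations without overlap (30.8%, beside 24.6%), which are shares near the background. The median log2 fold change was 0.11. The 3 were Hspa5, Hsp90b1 and Dnajc3, which also hold the ER stress element. Of the 6 other ER stress genes with that element, 1 (Pdia6) reached an unadjusted p under 0.05. Of the 16 without it or without a window, 6 did. The part of the element in these values was not tested. Hspa5 (BiP), the Hsp70 of the ER that also holds the stress sensors inactive, was at 4145, 3743 and 3713 CPM in CD206neg and 4379, 4898 and 4714 CPM in CD206pos. It was rank 15 per kilobase among all tested genes. All CD206pos values were above all CD206neg values, at a log2 fold change of 0.27 (0.01 to 0.53, unadjusted p = 0.046 and adjusted p = 0.27 in edgeR). Hsp90b1 (Grp94), the Hsp90 of the ER, was at 1802, 1976 and 1724 CPM in CD206neg and 2527, 2233 and 2159 CPM in CD206pos. Here too the populations did not overlap, with a log2 fold change of 0.33 (0.05 to 0.61, edgeR adjusted p = 0.20). Dnajc3 (p58IPK), a J-domain protein that serves Hspa5 and restrains the kinase arm of the ER stress response, was at 159.9, 202 and 208 CPM in CD206neg and 225, 259 and 241 CPM in CD206pos. Its log2 fold change was 0.35 (0.01 to 0.69, edgeR adjusted p = 0.27). Dnajc3 was chosen for its element and after its values were seen. Of the 12 macrophage markers, 7 were called higher in the same libraries (summed levels above), and their part in these values was not tested.

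Of the other 10 tested ER genes, 5 had positive log2 fold changes, and only Dnajc18, named after its values were seen, had populations without overlap. Hspa13 was at 25.5, 35.4 and 21 CPM in CD206neg and 32.2, 26.4 and 22.3 CPM in CD206pos. The ER J-domain genes Dnajb9, Dnajb11, Dnajb12 and Dnajb14, picked as that family's ER forms, had log2 fold changes between -0.17 and 0.09 with overlapping populations. Among 22 further genes of the ER unfolded protein response, 7 were higher and 0 lower at an unadjusted p under 0.05 in edgeR. That is 31.8%, beside 17.6% of all tested genes. By litter, 8 of these 22 reached an unadjusted p under 0.05 (36.4%, beside 9.17% of all tested genes). Between populations, 1 was called higher and 0 lower (4.87% of all tested genes were called), and the median log2 fold change was 0.29. The called gene was Xbp1, the transcription factor that the ER sensor Ern1 activates by splicing, at 320.0, 346 and 357 CPM in CD206neg and 448, 523 and 530.0 CPM in CD206pos (edgeR adjusted p = 0.048). Its call was kept under 5 of 17 alternative settings, and without any single library or litter its adjusted p lay between 0.034 and 0.48. Ddit3 (CHOP) was at 81.4, 52.5 and 72.6 CPM in CD206neg and 128, 83.8 and 96.7 CPM in CD206pos and Atf4 at 313, 312 and 191 CPM in CD206neg and 414, 188 and 159.7 CPM in CD206pos, with edgeR adjusted p-values of 0.23 and 0.94.

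In the mitochondrion 0 of 9 tested members were called and 0 reached an unadjusted p under 0.05, with DESeq2 and limma-voom calling none of them either. Over all tested genes 4.87% were called and 17.6% reached that unadjusted p. Dnajc19, picked after its values were seen, was the 1 member without overlap (11.1%, beside 24.6% of all tested genes). It was higher in CD206pos in each litter (log2 fold change 0.49, interval -0.01 to 0.99, edgeR adjusted p = 0.29). Hspa9 (mortalin), the Hsp70 that pulls proteins through the inner membrane, was at 1120.1, 936 and 742 CPM in CD206neg and 869, 795 and 659.7 CPM in CD206pos. CD206pos was lower in each litter, but the populations overlapped (log2 fold change -0.27, interval -0.67 to 0.14). Its J-domain partner Dnaja3 was at 192, 144 and 144 CPM in CD206neg and 103, 161 and 131 CPM in CD206pos. Of 11 genes for mitochondrial proteases and chaperone partners, 0 were called and 0 reached an unadjusted p under 0.05.

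J-domain genes form the largest family, and 0 of 40 tested ones were called by edgeR, DESeq2 or limma-voom. At an unadjusted p under 0.05, 3 were higher and 1 lower. That is 0% of the DnaJA, 8.33% of the DnaJB and 12.5% of the DnaJC genes, beside 17.6% of all tested genes. All 4 DnaJA genes had negative log2 fold changes, although Dnaja1 (-0.13 to 0.11) and Dnaja3 (-0.56 to 0.0171) turned positive with some library or litter left out. Dnaja2, which feeds Hspa8, was at 359, 347 and 255 CPM in CD206neg and 299, 224 and 179 CPM in CD206pos, lower in CD206pos in each litter (log2 fold change -0.46, interval -0.94 to 0.03), and Dnaja4 at 3.92, 2.26 and 3.5 CPM in CD206neg and 2.57, 0.974 and 0.868 CPM in CD206pos. Among 12 tested DnaJB genes the largest positive values were those of Dnajb7 (1.35) and Dnajb5 (1.16). Dnajb5 was at 5.12, 3.01 and 3.95 CPM in CD206neg and 13, 7.62 and 6.42 CPM in CD206pos, without overlap (edgeR adjusted p = 0.25). The largest negative values, Dnajb12 (-0.17) and Dnajb1 (-0.12), were small.

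Among 24 tested DnaJC genes, 15 had positive log2 fold changes. The 2 largest were Dnajc12, a co-chaperone of aromatic amino acid hydroxylases, at 5.12, 6.78 and 9.53 CPM in CD206neg and 16.3, 7.56 and 14.6 CPM in CD206pos (log2 fold change 0.84, interval -0.13 to 1.82), and Dnajc4, at 8.33, 11.1 and 14.2 CPM in CD206neg and 17.6, 18.4 and 20.9 CPM in CD206pos without overlap (log2 fold change 0.76, edgeR adjusted p = 0.24). The 2 largest negative values were those of Dnajc28 (-0.62, interval -2.50 to 1.26) and Dnajc21 (-0.59, interval -1.92 to 0.73), both below 10 CPM in every library. Dnajc2 (zuotin), which recruits Hsp70 to nascent chains at the ribosome, was picked after its values were seen. It was at 206, 176 and 147 CPM in CD206neg and 149, 108 and 97.9 CPM in CD206pos, lower in each litter, with a log2 fold change of -0.58 (-1.04 to -0.11) and an edgeR adjusted p of 0.18.

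Among regulators and helpers of the cytosolic chaperones, Hsbp1 was called and the others were not. Of 5 tested heat shock factors and regulators, 3 reached an unadjusted p under 0.05 (60%, beside 17.6% of all tested genes). These were Hsbp1 and Ier5 (higher) and Hsf1 (lower). Ier5, picked after its values were seen, was at 20.8, 14.9 and 16.2 CPM in CD206neg and 30.6, 33 and 29.5 CPM in CD206pos. It was higher in each litter without overlap, at a log2 fold change of 0.84 and an edgeR adjusted p of 0.10. Hsf1 itself was at 151, 116 and 111 CPM in CD206neg and 88.8, 105 and 83.6 CPM in CD206pos. CD206pos lay below CD206neg without overlap, and the test did not pass (log2 fold change -0.44, edgeR adjusted p = 0.24). Hsf2 was at 10.8, 16.6 and 19.6 CPM in CD206neg and 16.3, 8.42 and 13.4 CPM in CD206pos. Hsbp1, a small protein that binds heat shock factor trimers and dampens Hsf1, was called higher in CD206pos, with a mean of 126 ± 6.8 CPM in CD206neg and 199.8 ± 11 CPM in CD206pos (SD, n = 3), which is 1.58-fold (edgeR adjusted p = 0.028). Its fold kept within 0.57 to 0.70 on the log2 scale under 17 alternatives, but 9 of them lost the call. Without any single library or litter the adjusted p lay between 0.050 and 0.32. Of 12 exchange factors and partners of Hsp70 0 were called and 0 reached an unadjusted p under 0.05. Of these 12, 3 had populations without overlap, all lower in CD206pos (Bag4, Bag5 and Bag6). That is 25%, beside 24.6% of all tested genes. By sign, 6 of the 12 log2 fold changes were positive and 6 negative. Bag3, the partner that Hsf1 induces, was at 194, 296 and 188 CPM in CD206neg and 262, 334 and 297 CPM in CD206pos (edgeR adjusted p = 0.37). Of 17 Hsp90 co-chaperones 0 were called, with a median log2 fold change of -0.27. Among these 17, 4 were lower and 0 higher at an unadjusted p under 0.05 (23.5%, beside 17.6% of all tested genes). Of 14 subunits of the cytosolic chaperonin CCT and its helper prefoldin 0 were called and 0 reached an unadjusted p under 0.05, although 13 had negative log2 fold changes (median -0.34).

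Immediate early genes are also known to rise on tissue dissociation, and 9 of 27 such genes were called higher in CD206pos and 0 lower. Over all tested genes 2.97% were called higher and 1.9% lower. Of the 27, 15 reached an unadjusted p under 0.05 (55.6%, beside 17.6% of all tested genes), all higher. Their median log2 fold change was 0.75. By litter, 6 of the 27 reached an unadjusted p under 0.05 (22.2%, beside 9.17% of all tested genes). Egr1 was at 295, 323 and 253 CPM in CD206neg and 803, 839 and 840.2 CPM in CD206pos (2.85-fold, edgeR adjusted p = 0.0011), and Zfp36 at 265, 292 and 240.0 CPM in CD206neg and 564, 488 and 522 CPM in CD206pos (1.97-fold, edgeR adjusted p = 0.0052). Nfkbiz and Nfkbia rose 2.59-fold and 2.14-fold. Without a library or litter the edgeR adjusted p reached at most 0.078 for Egr1, 0.14 for Zfp36, 0.11 for Nfkbiz and 0.15 for Nfkbia, and of these 9 runs the call was lost in 1 for Egr1, 2 for Zfp36, 4 for Nfkbiz and 5 for Nfkbia. Atf3, which stress and inflammatory signals both induce, was at 468, 298 and 251 CPM in CD206neg and 1109, 744 and 676 CPM in CD206pos (edgeR adjusted p = 0.03, and up to 0.32 without a library or litter, lost in 6 of the 9 runs). Jun (1.2-fold, edgeR adjusted p = 0.38) and Fos (1.76-fold, edgeR adjusted p = 0.13) did not pass, but Fos passed in the edgeR fit that blocks on litter (adjusted p = 0.0052), with DESeq2 (0.014) and without litter 1 (0.028). Summed over the list, CD206neg libraries held 8566 to 8886 CPM and CD206pos libraries 12868 to 15218 CPM. The 14 heat-inducible genes summed to 10215 to 13592 and 9142 to 11686 CPM, which overlap, and without Hsp90ab1 and Hspa8 to 4225 to 5059 and 4017 to 4731 CPM. Within each litter both sums were lower in CD206pos. For the 14 genes they were 13592 against 11686, 12158 against 11106 and 10215 against 9142 CPM (CD206neg against CD206pos). The sums were not tested. The 7 called macrophage markers were higher in the same libraries as the immediate early genes, and their part was not tested. The difference between the 2 stress lists was itself not tested.

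**Figure D3:**
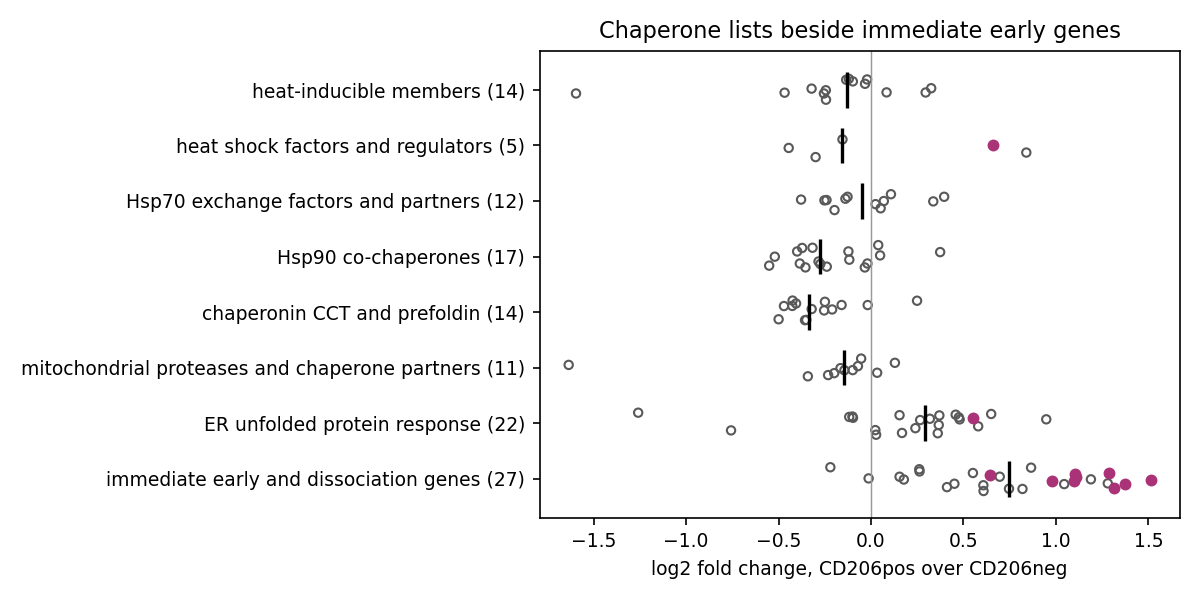
Log2 fold changes (CD206pos over CD206neg) of each tested gene in 8 lists, with the number tested in brackets; filled points were called by edgeR, open points were not, and black bars are medians. Called points lie in the immediate early list (9 of 27), and singly among heat shock regulators (Hsbp1) and the ER unfolded protein response (Xbp1), while the 14 heat-inducible genes have none.

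The levels of several abundant chaperones were ordered alike by litter in both populations. The test of the litter number, with the population in the model, was chosen after the values were seen and has 2 libraries per litter. By edgeR 0 of 12668 genes were called among litters. At an unadjusted p under 0.05, 12 of the 66 members (18.2%) varied, beside 9.17% of all tested genes, and 6 of the 14 heat-inducible ones did. Hsp90ab1 was -0.54 on the log2 scale in litter 3 against litter 1 (unadjusted p = 0.002, adjusted p = 0.46, edgeR). Its value between populations was -0.24. The first value is that of the extreme pair of litters and the second contrasts means over all litters, so their sizes are not compared. For Hspd1, Hspa9, Hsp90aa1, Hspa8 and Hsph1 the litter 3 against litter 1 values were -0.54, -0.50, -0.63, -0.50 and -0.42. Litter 1 had the highest level and litter 3 the lowest for all 6 of these genes in both populations. Dnajb1 was instead highest in litter 2 in both populations, and Hspa1a lowest in litter 1 in both. Of the CCT and prefoldin genes, 8 of 14 reached an unadjusted p under 0.05 among litters. Mesenchymal markers summed to 14.7, 10.7 and 96.2 CPM in CD206neg and 13.3, 4.7 and 74.9 CPM in CD206pos, highest in litter 3 in both. Of the 7 tested, 4 reached an unadjusted p under 0.05 among litters in edgeR (57.1%) and 0 were called. Their part in the chaperone values was not tested.

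**Figure D4:**
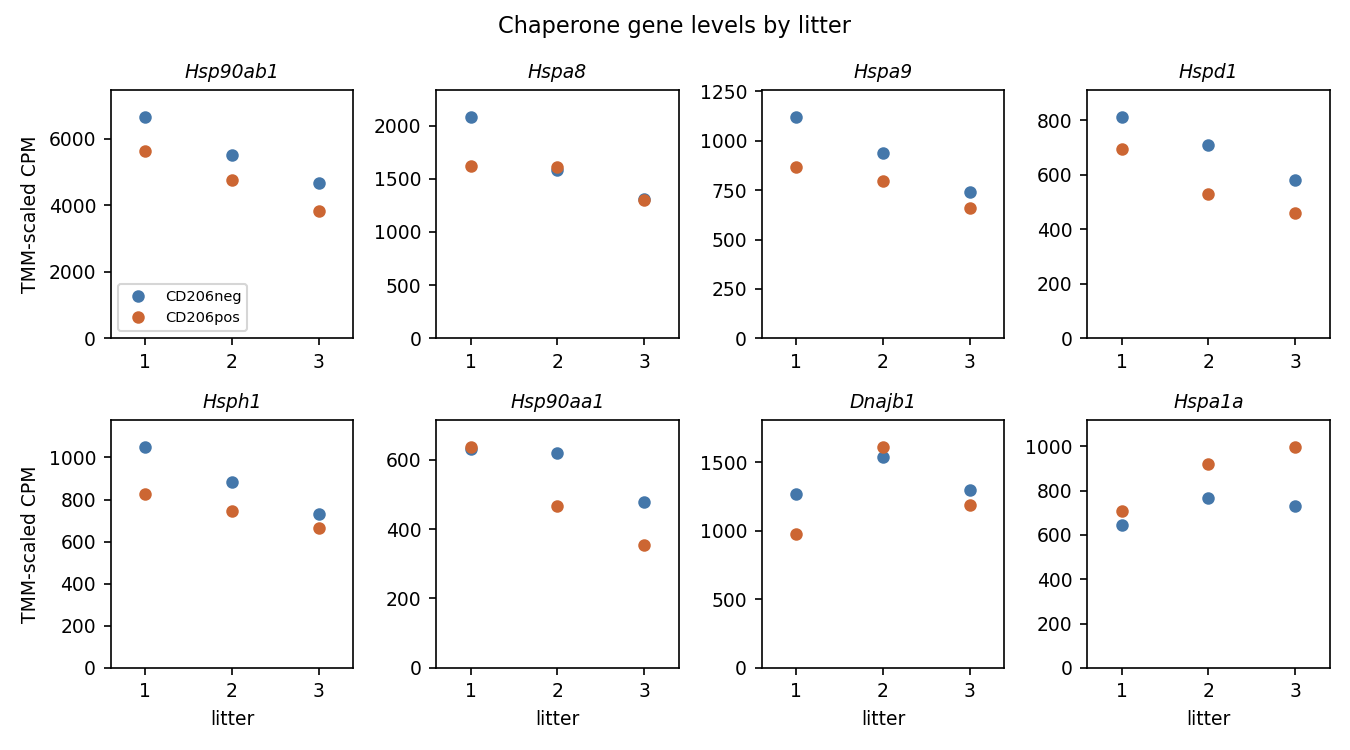
TMM-scaled CPM (axes from 0) of 8 chaperone genes by litter, CD206neg in blue and CD206pos in orange. Hsp90ab1, Hspa8, Hspa9, Hspd1, Hsph1 and Hsp90aa1 are highest in litter 1 and lowest in litter 3 in both populations, Dnajb1 is highest in litter 2, and Hspa1a is lowest in litter 1.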

How the data were processed

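RNA of FACS-sorted cells was sequenced in 6 libraries. Each deposited file holds raw read counts per gene for 1 library, made by the authors with featureCounts 1.5.2 on GENCODE vM14, per the file headers, with no option for strand, multi-mapping reads or overlapping genes. The submitters' processing notes name STAR 2.3 and the builds mm10 and GRCm38.p5. Read length, strandedness and sequencing batches were not stated in what was used here. Coordinates follow the files (GRCm38), and symbols came from GENCODE M21 (51633 of 51912 identifiers matched).

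Groups were taken from the labels, and litter numbers from the titles (AGM 1 to 3). Counts were filtered with filterByExpr, scaled by TMM and tested in edgeR 4.0.16 (R 4.3.3) with the robust quasi-likelihood test, without a litter block, adjusted over 12668 genes. The common biological coefficient of variation was 0.44. Same-numbered libraries correlated at 0.089, 0.039 and 0.18 in their deviations from the group means. Differently numbered pairs correlated at -0.15 to 0.064. The highest of these, CD206neg 2 with CD206pos 1, lay above the same-numbered value of 0.039 for litter 2, so the pairing is weakly marked in the counts. Libraries of a group differed well beyond counting noise (chi-square over degrees of freedom 36.9 to 90.4). CPM floors are 3 reads and cover counting error only. The 95% intervals of the log2 fold changes come from the quasi-likelihood fit and include the spread between pools.

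The gene family and the lists were chosen with earlier results of these data known, although membership in the family follows from the symbol. Named were called members, the 14 heat-inducible genes, the 2 largest changes in each direction per family of at least 6 tested genes and every tested gene of smaller families, the highest and lowest per kilobase, up to 4 called genes per list and direction, 9 stress regulators and Mrc1. Marker genes of cell types are given as counts, with single names beside a result. Alternatives were the litter block, RLE, upper-quartile scaling, library totals, filters of 1 read or of 5 CPM in 3 libraries, DESeq2 1.42.0, limma-voom (limma 3.58.1), and leaving out each library or litter.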

Additional observations from a re-analysis of the deposited data

How the results depend on the processing

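The count of members called higher was 0 under all 17 alternatives. The count called lower was 1 under RLE, upper-quartile and total scaling and DESeq2, and 0 with the looser filter, the stricter filter (Hspb3 not tested there) and limma-voom. It was 0 to 0 over the runs that left out a library or litter. With the litter as a replicate block it was 0. In that edgeR fit 18 of the 66 members reached an unadjusted p under 0.05 (27.3%, beside 20.8% of all tested genes). Without the block 11 did (16.7%, beside 17.6% of all tested genes). The block changed the call of no member other than Hspb3. The median log2 fold change of the members was -0.05 with the block (-0.0506), -0.0389 with RLE, -0.0507 with upper-quartile scaling, -0.11 with library totals (all tested genes -0.09), -0.0299 with the looser filter, -0.0388 with DESeq2, -0.0435 with limma-voom, and -0.0955 to 0.0312 over the runs that left out a library or litter. Of the named genes, 10 changed sign under some alternative. Over the left-out libraries and litters Atf4 ranged from -0.65 to 0.15, Dnaja1 from -0.13 to 0.11, Dnaja3 from -0.56 to 0.0171, Dnajb1 from -0.36 to 0.0276, Dnajc28 from -1.53 to 0.28, Hspa13 from -0.21 to 0.21, Hspa1b from -0.86 to 0.13, Hspa8 from -0.28 to 0.0631, Hspb1 from -0.22 to 0.52 and Hspe1 from -0.47 to 0.17, and with library totals the log2 fold change of Hspb1 was -0.0067. The cause was not tested. Over all tested genes 617 were called, 1210 by DESeq2, and 3 to 561 with a library or litter left out. Of 24 called genes taken by the naming rule, 23 lost the call under at least 1 alternative; Fos gained it with the block, DESeq2 and without litter 1. Leaving out litter 1, 2 or 3 left 307, 3 and 153 called genes of all tested. Depth limits the genes near the 3-read floor, such as Hspb3, Hspb8 and Hspa12a.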
